A study of Mus musculus with 24 samples.

Results

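The levels of miR-146a, miR-146b and miR-155 (mmu-miR-146a, mmu-miR-146b and mmu-miR-155 in the files) were followed in the whole lung of healthy C57BL/6 mice at 5 ages after birth. These 3 microRNAs (miRNAs) were taken by name from the 650 miRNA names on an Agilent 1-colour array, and all 3 were among the 322 miRNAs tested. There were 5 arrays for each of day 1, day 4, day 7 and day 14 and 4 for day 42, the last 2 ages being labelled in weeks, with each array carrying Cy3-labelled total RNA of 1 biological replicate. Whether replicates came from separate mice is not stated in the labels, so the p-values measure the spread between these samples. Although the study is titled as one of fetal lung, its samples and design are labelled as postnatal, and those labels were followed. No treatment, infection or genetic change is named for any group.

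A miRNA is a short RNA that guides a silencing complex to messages that pair with its seed, the bases 2 to 8 from its 5′ end. The transcription factor NF-kB, switched on by Toll-like receptors (sensors of microbial molecules), raises transcription of miR-146a, which in turn lowers the signalling adaptors Irak1 and Traf6 and so acts as a brake on the same pathway. miR-146b is made from another gene and carries the same seed. miR-155 is cut from the non-coding transcript of its host gene, long known as Bic. It rises in activated macrophages, B cells and T cells, where it lowers Socs1 and Inpp5d (SHIP1), both inhibitors of immune signalling.

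The mature sequences are shown because the shared and separate seeds define the pair and the odd one out. They are RefSeq entries on assembly GRCm38.p6, written 5′ to 3′ with the seed in capitals.
miR-146a: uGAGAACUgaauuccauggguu
miR-146b: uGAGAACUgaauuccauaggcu
miR-155: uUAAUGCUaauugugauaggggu
miR-146a lies at chr11:43374435-43374456 on the minus strand, where the annotation has no other gene overlapping it. miR-146b lies at chr19:46342790-46342811 on the plus strand, within the non-coding gene Gm36493. miR-155 lies at chr16:84714143-84714165 on the plus strand, within its non-coding host gene Mir155hg. The 2 miR-146 sequences are identical at 20 of 22 bases. They differ by G18A and U21C, counted from the 5′ end and written from miR-146a to miR-146b. Of 1679 mature mouse sequences in the table, only these 2 hold the seed GAGAACU and only miR-155 holds UAAUGCU. The probe sequences were not used here, and how far the probes for miR-146a read miR-146b, or the reverse, was not tested.

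Levels are given as scaled array signal: the background-subtracted spot signals of a miRNA's 2 probes were averaged per probe, summed, and divided by the array's 75th percentile, then multiplied by 1 common factor. Differences between ages are on the log2 scale, later age minus earlier age, with the standard error of the limma model after ±. A difference was called at an adjusted p under 0.05 (Benjamini-Hochberg over 322 miRNAs). Signals of different miRNAs cannot be set against each other, since each probe has its own response. The 75th percentile before scaling, used as a measure of array brightness, averaged 1539, 1957, 2418, 3239 and 3104 from day 1 to day 42, so that the younger arrays were dimmer. The 5 dimmest arrays were 3 of day 1 and 2 of day 4. The arrays came from 3 slides, each holding all 5 ages. miR-124, a defining miRNA of brain, was detected on none of the 24 arrays, but markers of striated muscle and liver were detected. At day 1 the striated muscle marker miR-1 ran from 56.1 to 16995 and miR-208b reached 1111. The liver marker miR-122 was detected on 2 of 5 arrays at day 1 and reached 789 at day 7. The miRNA markers of endothelium, epithelium and blood cells were detected throughout, apart from the epithelial marker miR-205, detected on 4 of 5 arrays at day 14.

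After scaling, all 3 miRNAs stayed near their newborn level through day 7 and stood higher at day 14 and day 42. With no scaling, miR-146a and miR-155 were already called as higher at day 7 than at day 1. On the arrays as scaled here, the miR-146 pair gained most of its change by day 14, whereas miR-155 gained most of its change between day 14 and day 42. On the log2 scale, 73.9% of the difference between day 42 and day 1 was present at day 14 for miR-146a, 68.6% for miR-146b and 35.5% for miR-155. These shares carry no test and depend on the scaling. With no scaling, miR-155 too gained most of its change by day 14. The median difference of all tested miRNAs was then 0.89 for day 14 minus day 1 and -0.26 for day 42 minus day 14. As scaled here, both medians were -0.17. The F-test over the 5 ages called all 3, with limma adjusted p of 1.28e-06 for miR-146a, 2.87e-10 for miR-146b and 5.00e-07 for miR-155. Of all tested miRNAs, 65.5% were called in that test. Under another background correction, normexp, the F-test did not call miR-155, with or without an offset.

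**Figure D1:**
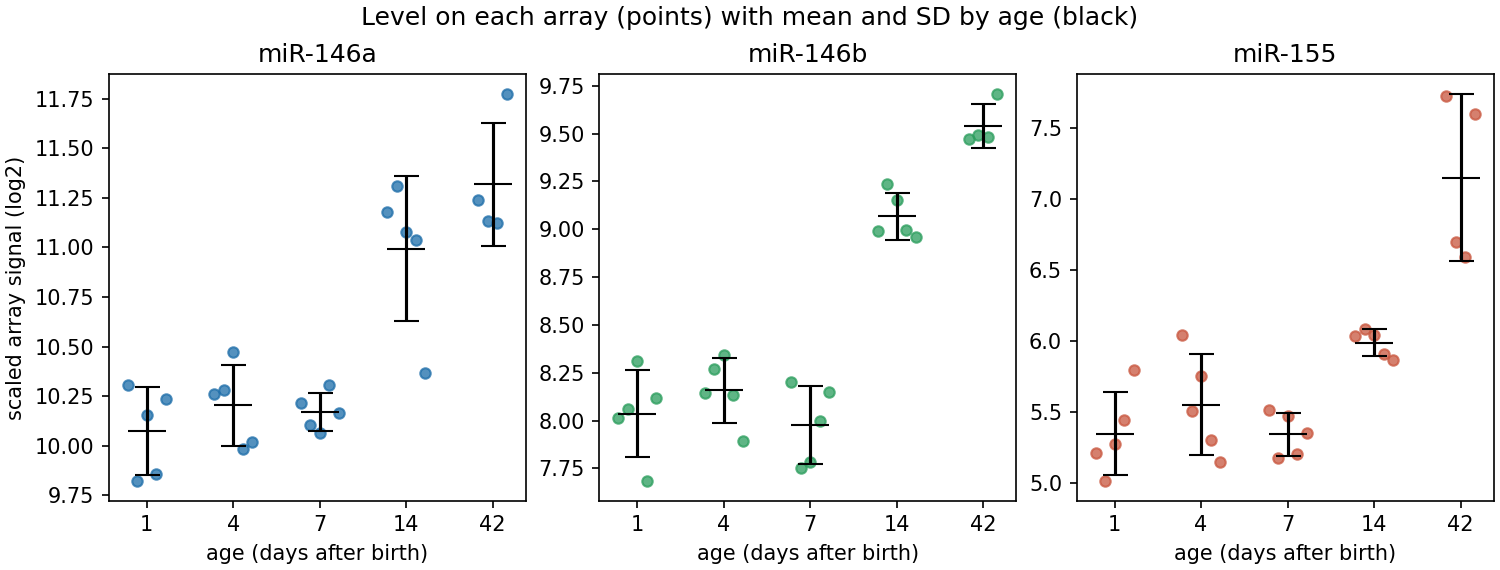
Scaled array signal (log2, vertical axis) of miR-146a, miR-146b and miR-155 against age in days after birth, with 1 point per array and black bars for the mean and SD of each age (n = 5, and n = 4 at day 42). The points of day 1, day 4 and day 7 overlap in each panel, and the points of day 42 lie above all of them.

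miR-146a, the feedback brake on Toll-like receptor signalling, had scaled signals of 1266, 904, 1142, 927 and 1208 at day 1. At day 4 the arrays read 1225, 1247, 1421, 1012 and 1038, and at day 7 they read 1190, 1101, 1070, 1267 and 1147. These 15 arrays overlapped, and none of the first 3 ages stood apart from the others.

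At day 14 miR-146a had 2317, 2543, 2160, 2102 and 1322, and at day 42 it had 2421, 2243, 2233 and 3506. Replicate 5 of day 14 was far below the other arrays of its age and lay beneath the highest array of day 4, and replicate 4 of day 42 was the highest of all. The age means were 1089 ± 165, 1189 ± 168, 1155 ± 77.5, 2089 ± 462 and 2601 ± 610 from day 1 to day 42 (SD over 5 arrays, or 4 at the last age).

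miR-146b, which shares the seed of miR-146a, had 258, 267, 318, 205 and 277 at day 1. At day 4 it had 283, 309, 325, 281 and 238, and at day 7 it had 295, 216, 221, 255 and 284. As with miR-146a, the first 3 ages overlapped.

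miR-146b then had 508, 603, 570, 511 and 497 at day 14, and 711, 719, 715 and 837 at day 42. Here the 3 levels were fully separate: every array of day 14 was above every array of the first 3 ages, and every array of day 42 was above every array of day 14. The age means were 265 ± 40.5, 287 ± 33.0, 254 ± 35.8, 538 ± 46.1 and 745 ± 61.1 from day 1 to day 42 (SD over 5 arrays, or 4 at the last age).

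miR-155, the miRNA of activated immune cells, was the dimmest of the 3 on these arrays, with 37.0, 32.3, 38.7, 43.5 and 55.4 at day 1. At day 4 it had 65.7, 45.5, 53.9, 39.4 and 35.5, and at day 7 it had 45.6, 36.1, 44.4, 36.8 and 40.9. The highest of these 15 arrays, replicate 1 of day 4, was one of the 5 dimmest arrays and reached the level of day 14.

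At day 14 miR-155 had 65.6, 67.8, 65.8, 60.1 and 58.2, a narrow band above every array of day 1 and day 7. At day 42 it had 211, 104, 96.1 and 193, all above day 14 and split into a higher pair (replicates 1 and 4) and a lower pair (replicates 2 and 3). The age means were 41.4 ± 8.83, 48.0 ± 12.1, 40.8 ± 4.31, 63.5 ± 4.12 and 151 ± 59.5 from day 1 to day 42 (SD over 5 arrays, or 4 at the last age).

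Day 42 was compared with day 1 to ask how far the young adult lung differs from the newborn lung. All 3 miRNAs were higher at day 42, and 4 of 4 arrays of day 42 lay above every array of day 1 for each. The difference was 1.24 ± 0.18 for miR-146a (2.37-fold, limma adjusted p = 1.81e-06), 1.50 ± 0.13 for miR-146b (2.83-fold, 1.03e-09) and 1.80 ± 0.22 for miR-155 (3.49-fold, 1.53e-07). Rises were called for 18.9% of the 322 tested miRNAs, 13.4% were higher without overlap of the arrays, and the median difference of all tested miRNAs was -0.35. That share depended on the scaling, reaching 38.8% when the percentile was taken over all names and 45.0% on unscaled arrays, and the 3 miRNAs were called as rises under each of these. By size of rise, miR-155 ranked 11, miR-146b 13 and miR-146a 21 among the 322.

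A rise at day 42 over day 1 within each of the 3 slides followed from the arrays not overlapping. Only its size is therefore given, with no test and from few arrays per age and slide. The size was 1.05, 1.36 and 1.58 for miR-146a, 1.64, 1.42 and 1.50 for miR-146b, and 1.37, 2.14 and 2.06 for miR-155. With array brightness as a covariate the 3 differences were 1.42, 1.48 and 2.29, and without the 5 dim arrays they were 1.33, 1.35 and 2.01, called in each case. Under 1 kind of background correction, normexp, which adds an offset of 100 over the 2 probes of a miRNA, miR-155, with an unscaled signal of median 44.3, was at -0.50 and miR-146b at 0.59, and neither was called. With normexp and no offset miR-155 was at 0.12, not called, and miR-146b at 0.94, called.

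**Figure D2:**
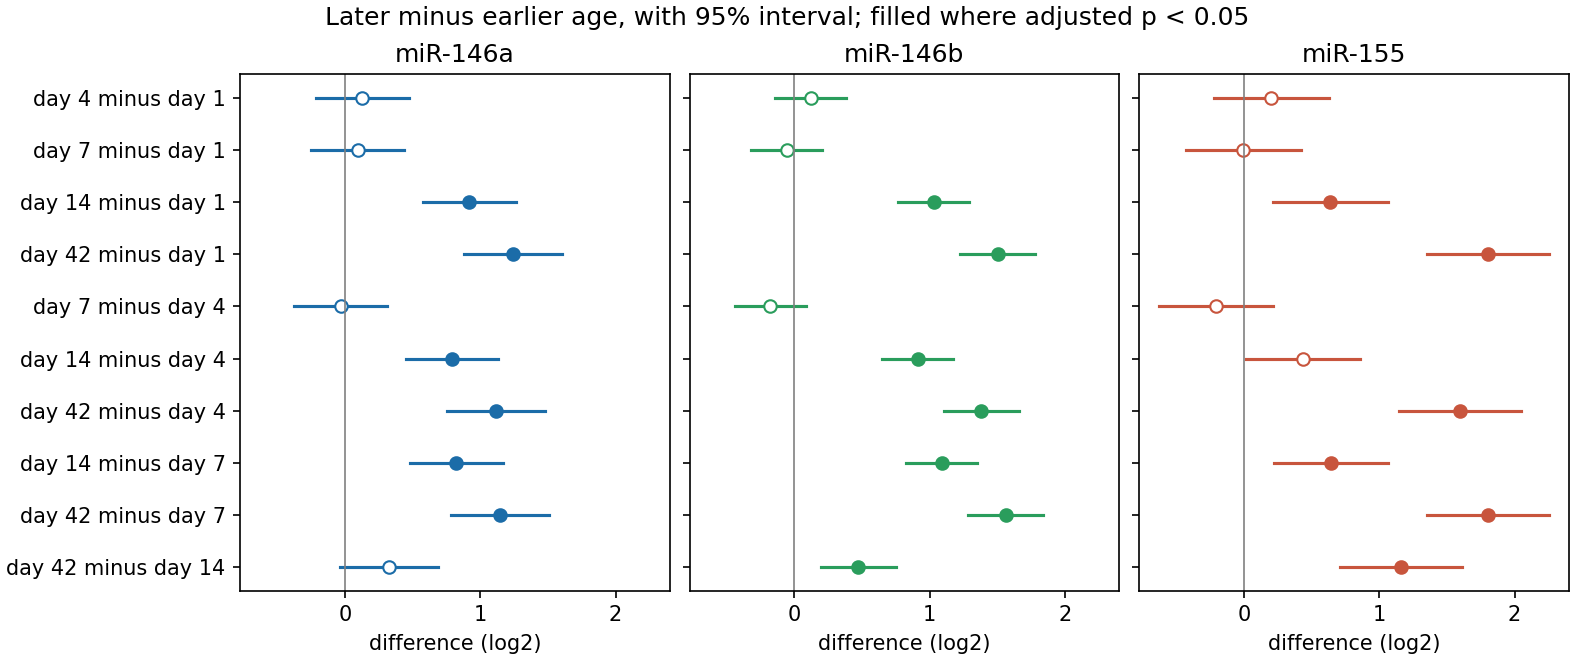
Difference between 2 ages (log2, later minus earlier, horizontal axis) for all 10 pairs of ages, with the 95% interval of the limma model as a bar and a filled point where the adjusted p was under 0.05. All pairs among day 1, day 4 and day 7 have open points, and all pairs of day 42 with these 3 ages have filled points to the right of 0.

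Day 14 was compared with day 1 and with day 7 to place the rise in time. Against day 1, the differences at day 14 were 0.92 ± 0.17 for miR-146a (limma adjusted p = 6.85e-05), 1.03 ± 0.13 for miR-146b (3.84e-07) and 0.64 ± 0.20 for miR-155 (0.0114). Each was a rise in 5 of 5 arrays above every array of day 1, and 35.4% of the tested miRNAs had no overlap of the arrays in one direction or the other. Rises were called for 21.1%. Within the 3 slides the difference was 1.03, 1.49 and 0.53 for miR-146a, 1.15, 1.18 and 0.84 for miR-146b, and 0.64, 1.07 and 0.42 for miR-155. With normexp the value was 0.40 for miR-146b and -0.48 for miR-155, and neither was called.

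Against day 7, the differences at day 14 were 0.82 ± 0.17 for miR-146a (limma adjusted p = 0.000382), 1.09 ± 0.13 for miR-146b (7.25e-07) and 0.64 ± 0.20 for miR-155 (0.0175), again with 5 of 5 arrays above the earlier age. Rises were called for 7.45% of the tested miRNAs in this step, and 11.8% were higher without overlap. The rise of miR-146b was the fifth largest of the 322, whereas miR-146a ranked 18 and miR-155 ranked 25. With normexp that of miR-155 was 0.58 and was not called, while those of miR-146a and miR-146b were. The preceding steps called none of the 3. Against day 1, day 4 called 1.55% of the tested miRNAs and day 7 called 15.8%, and day 7 against day 4 called 0.311%.

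The intervals bound what a change from day 1 to day 7 could have been. For day 7 minus day 1, the 95% interval of the log2 difference was -0.25 to 0.44 for miR-146a, -0.32 to 0.20 for miR-146b and -0.43 to 0.42 for miR-155. The intervals of day 14 minus day 1 lay wholly above these for miR-146a (0.58 to 1.26) and miR-146b (0.77 to 1.29). For miR-155 that interval was 0.22 to 1.06 and overlapped. For day 4 minus day 1 the interval of miR-155 was -0.22 to 0.63. All these intervals hold for the scaled arrays. With no scaling, day 7 minus day 1 was 0.82 for miR-146a (limma adjusted p = 0.0246) and 0.72 for miR-155 (0.0177), both called, and 0.66 for miR-146b (0.0736). For day 14 minus day 4, where 11.2% of miRNAs were called as rises, miR-146a (0.79 ± 0.17, limma adjusted p = 0.000472) and miR-146b (0.91 ± 0.13, 4.03e-06) were called, although with normexp miR-146b was at 0.77 and was not. miR-155 was not called, at 0.44 ± 0.20 (adjusted p = 0.0922). Without replicate 1 of day 4 that difference was 0.56 and was called (adjusted p = 0.0383).

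Day 42 was compared with day 14 to ask what followed the first rise. miR-155 was higher at day 42 by 1.16 ± 0.22 (2.24-fold, limma adjusted p = 0.000198), the fourth largest rise of the 322. miR-146b was higher by 0.47 ± 0.13 (1.39-fold, adjusted p = 0.00871). For both, 4 of 4 arrays of day 42 were above every array of day 14. For miR-146a the difference was 0.32 ± 0.18 (adjusted p = 0.188), with a 95% interval of -0.040 to 0.69, and the arrays overlapped. Rises were called for 4.66% of the tested miRNAs, 3.73% were higher without overlap, and the median difference of all of them was -0.17.

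Within the slides, day 42 minus day 14 was 0.72, 1.07 and 1.64 for miR-155, 0.50, 0.24 and 0.65 for miR-146b, and 0.023, -0.13 and 1.05 for miR-146a. The call for miR-155 held without any 1 array of either age, with differences of 0.97 to 1.35, and that for miR-146b held at 0.41 to 0.51. miR-146a was called when the arrays were scaled by the percentile over all names (0.60, adjusted p = 0.0166) or by the median (0.56, adjusted p = 0.0316). With normexp the difference was -0.019 for miR-155 and 0.19 for miR-146b, and neither was called.

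Day 42 was also higher than day 4 and day 7 for each of the 3. Against day 4 the differences were 1.11 ± 0.18 for miR-146a, 1.38 ± 0.13 for miR-146b and 1.60 ± 0.22 for miR-155, where 16.1% of miRNAs were called as rises and 10.2% were higher without overlap. Against day 7 they were 1.15 ± 0.18, 1.56 ± 0.13 and 1.81 ± 0.22 in the same order of miRNAs, where 17.1% were called as rises and 16.1% were higher without overlap. All 6 were called by limma, and in none did the arrays overlap. With normexp the differences of miR-155 were 0.30 against day 4 and 0.56 against day 7, and neither was called, while those of miR-146a and miR-146b were.

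Ratios of 2 of the miRNAs on the same array do not depend on the scaling of the array and were used to ask whether the 2 changed unequally. They can still vary with array brightness. With age held in the model, the log2 level changed per doubling of brightness by -0.48 for miR-155, -0.18 for miR-146a and 0.023 for miR-146b. Mean brightness was 1539 at day 1 and 3239 at day 14, and the part of brightness in the changes of a ratio was not tested. The log2 ratio of miR-155 over miR-146b averaged -2.39 at day 42, with an SD of 0.55 over 4 arrays, and -3.08 at day 14, with an SD of 0.076 over 5 arrays, and the 2 ages did not overlap. That change of 0.69 had an exact two-sided permutation p of 0.00794, the smallest that 4 against 5 arrays can give, and a p of 0.0714 after adjustment over 9 such tests. The ratio of miR-155 over miR-146a was higher by 0.84 at day 42 than at day 14 (exact permutation p = 0.0238, adjusted p = 0.107). Between day 14 and day 1 both ratios were lower at day 14, by -0.28 over miR-146a (exact permutation p = 0.159, adjusted p = 0.238) and by -0.39 over miR-146b (p = 0.0476, adjusted p = 0.143).

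The ratio of miR-146b over miR-146a, the pair with a shared seed, differed by 0.26 between day 42 and day 1 (exact permutation p = 0.119, adjusted p = 0.214) and by 0.15 between day 42 and day 14 (p = 0.429, adjusted p = 0.482). None of the 9 changes of a ratio passed the threshold after adjustment. The later timing of miR-155 is thus a difference in the values of the 3 courses that these tests did not call. In the deposited log2 values, 6 of the 9 changes passed it, and the ratio of miR-155 over miR-146a at day 14 was higher than at day 1 there (0.42, exact permutation adjusted p = 0.0238), opposite in sign to the value above.

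**Figure D3:**
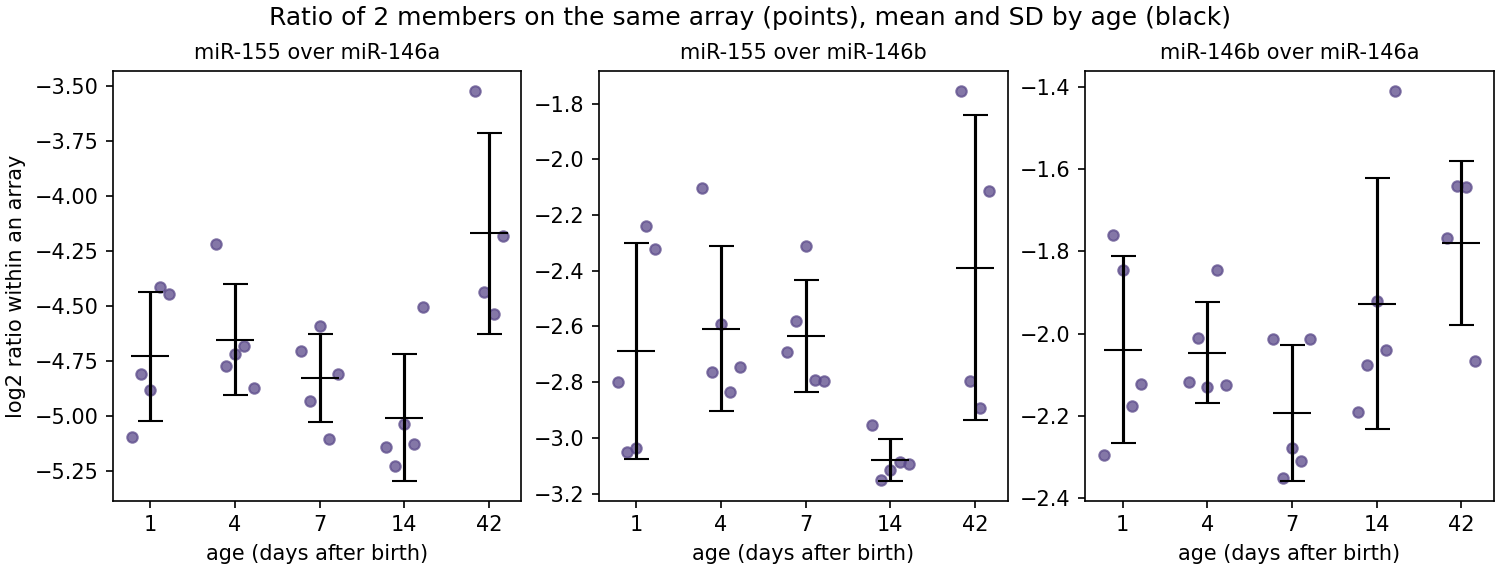
Log2 ratio of 2 of the miRNAs on the same array (vertical axis) against age in days after birth, with 1 point per array and black bars for the mean and SD (n = 5, and n = 4 at day 42). For miR-155 over miR-146b the points of day 14 form a tight group below -2.9 and the points of day 42 spread above them.

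Each miRNA was read by 2 probes printed as 10 spots each. At day 42 over day 1 the first and the second probe alone gave 1.25 and 1.21 for miR-146a and 1.76 and 1.45 for miR-146b, each called. For miR-155 the brighter probe alone gave 1.79, which was called. Nearly all spots of its dimmer probe were not well above background at day 1, so no difference is given for that probe. The first probe of miR-146a gave between 79.9% and 80.8% of its summed signal at every age. For miR-146b the share of the first probe was 19.5% at day 42, with an SD of 1.41 over 4 arrays, and 16.3% at day 1, with an SD of 0.69 over 5 arrays, so that its 2 probes did not rise by the same factor.

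The precision of the spots followed the brightness of the miRNA. All 457 spots used for miR-146a were well above background, as were 98.2% of those for miR-146b and 68.8% of those for miR-155. The dimmer probe of miR-155 was well above background on 2 of 47 spots at day 1, 1 of 47 at day 4, 14 of 45 at day 7, 40 of 50 at day 14 and 39 of 39 at day 42. Its brighter probe was so on 38 of 49 spots at day 1 and on every spot used at the other ages. The median coefficient of variation between spots of 1 probe on 1 array was 4.2% and 4.1% for the probes of miR-146a, 11.8% and 4.8% for miR-146b, and 22.7% and 9.7% for miR-155. The extraction software still marked miR-155 as detected on 24 of 24 arrays.

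**Figure D4:**
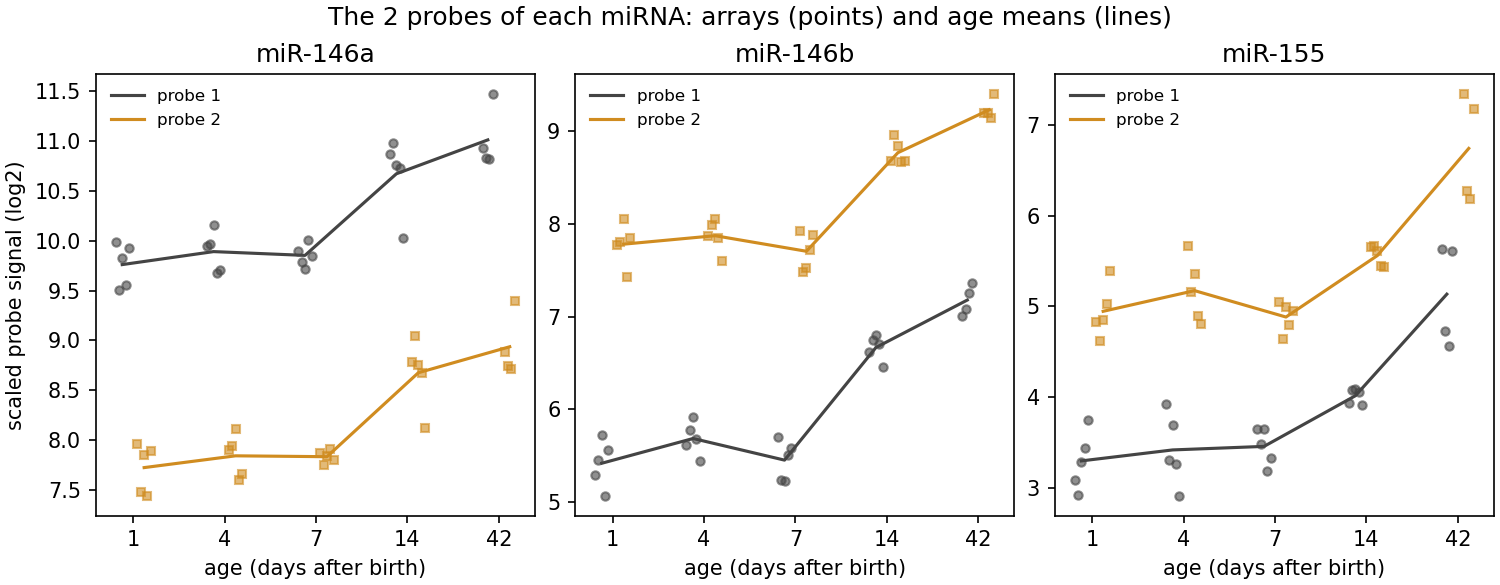
Scaled signal (log2, vertical axis) of the 2 probes of each miRNA against age in days after birth, with 1 point per array and lines through the age means. The age means of both probes of each miRNA lie close together through day 7 and higher at day 14 and day 42.

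A hairpin precursor has 2 arms, and the arm that is less often kept is marked with a star on this array. Of the minor arms of these precursors only miR-146b* was on the array, and it was detected on 0 of 24 arrays, with scaled signals of -8.43 to 3.37, all below the floor of 7.24. The RefSeq precursor of miR-146b, with the mature arm in capitals, shows where both arms lie: the minor arm covers the bases 67 to 88.
miR-146b precursor: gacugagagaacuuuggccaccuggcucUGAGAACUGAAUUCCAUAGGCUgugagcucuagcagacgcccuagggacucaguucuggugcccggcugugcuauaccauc

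Other miRNAs known to answer Toll-like receptors or NF-kB, or to act on that pathway, were set beside the 3. Of 16 such miRNAs on the array, 12 were tested, and they moved in both directions. The list mixes miRNAs that answer the pathway with ones that act on it, so its counts do not measure the activity of the pathway. At day 42 against day 1, 3 of 12 rose, 5 fell and 4 were not called, with a median of -0.093 beside -0.35 for all tested miRNAs, of which 18.9% rose and 42.9% fell. At day 14 against day 1, 2 rose and 2 fell, with a median of -0.21 beside -0.17 for all, of which 21.1% rose and 32.6% fell. At day 42 against day 14, 1 rose and 2 fell, with a median of 0.041 beside -0.17 for all, of which 4.66% rose and 28.0% fell. The 4 not tested were miR-9, miR-9*, miR-147 and miR-187, and miR-147 and miR-187, which answer Toll-like receptors in macrophages, were detected on none of the arrays.

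The largest rises of that list at day 42 over day 1 were those of miR-125b-5p, which lowers the message of tumour necrosis factor, with 1.11 ± 0.26 (limma adjusted p = 0.000718), and of miR-222, a regulator of the cell cycle inhibitor Cdkn1b, with 0.99 ± 0.25 (0.00153). The largest falls were those of miR-181b, known to restrain NF-kB import in endothelium, with -1.05 ± 0.22 (0.000253), and of miR-125a-5p, with -0.74 ± 0.26 (0.0155). miR-99b and let-7e, made from the same transcript as miR-125a, fell too, by 0.72 and 0.57 on the log2 scale. miR-132, which answers both microbial products and growth signals, fell by 0.66. miR-21, which lowers Pdcd4 and is raised in inflamed tissue, was at 0.31 ± 0.33 (adjusted p = 0.429).

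The lung RNA was bulk RNA, in which more cells of a type and more RNA per cell cannot be told apart, and 5 miRNAs of blood cells were therefore read on the same arrays. At day 42 against day 1, 4 of 5 rose, with a median of 1.60, where 18.9% of all tested miRNAs rose and their median was -0.35. miR-142-5p, made in all blood cell lines, was higher by 2.35 ± 0.50 (limma adjusted p = 0.000279), and miR-142-3p from the same precursor by 1.87 ± 0.61 (0.0105). At day 1 both varied widely, from 75.8 to 558 for miR-142-5p and from 353 to 3830 for miR-142-3p, which was low on the dim arrays. miR-150, abundant in mature lymphocytes, was higher by 1.60 ± 0.33 (0.000213), and miR-223, abundant in granulocytes and monocytes, by 0.43 ± 0.17 (0.0277). miR-342-3p was at -0.54 ± 0.27 (0.0869).

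The summed level of the blood cell miRNAs overlapped between day 14 and day 1 and did not overlap between day 42 and day 1. It was 6601 to 9034 at day 1, 6928 to 7083 at day 4, 6683 to 7828 at day 7, 8097 to 11845 at day 14 and 11554 to 14713 at day 42, and all 5 were detected on every array. Such sums, here and for other cell types below, add probes of unequal response, so the brighter miRNAs weigh most. They do not measure the number of cells. At day 14 against day 1, 2 of 5 were called as rises, miR-142-3p (1.92) and miR-142-5p (2.02), beside 21.1% of all tested miRNAs. At day 42 against day 14 the 2 called were miR-150 (1.04, limma adjusted p = 0.0166) and miR-223 (0.76, adjusted p = 0.000945), beside 4.66% of all.

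Markers of other lung cells also moved between these ages. Both arms of miR-126, the miRNA of endothelium, rose at day 14 over day 1 (0.80 for miR-126-3p and 1.13 for miR-126-5p) and at day 42 over day 1 (0.79 and 0.75), and neither was called at day 42 against day 14. Their summed level was 62485 to 83814 at day 42 and 31975 to 49293 at day 1. All 3 fibroblast miRNAs fell at day 42 against day 1, with log2 differences of -0.78 for miR-199a-3p, -1.61 for miR-199a-5p and -2.19 for miR-214, and with a summed level of 8182 to 10098 at day 42 and 15564 to 21178 at day 1. Falls were called for 42.9% of all tested miRNAs there. Of 6 epithelial miRNAs, 1 rose, 1 fell and 4 were not called at day 42 against day 1. None of the 3 red blood cell miRNAs and neither smooth muscle miRNA was called there. The part of blood cells, or of any of these cell types, in the rises of miR-146a, miR-146b and miR-155 was not tested.

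Single arrays showed values of these blood cell miRNAs beside those of the 3. At day 42 the higher pair for miR-155, replicates 1 and 4, had 1179 and 1998 for miR-150, and replicates 2 and 3 had 709 and 723. For miR-223, replicates 1 and 4 had 3836 and 5613, and replicates 2 and 3 had 3653 and 3055. miR-142-3p was ordered otherwise, with 6520 and 1655 on replicates 1 and 4, and 4672 and 6769 on replicates 2 and 3. The same replicates 1 and 4 were also the dimmer arrays of that age, with 75th percentiles of 2662 and 1727, against 4151 and 3878 for replicates 2 and 3. Replicate 5 of day 14, the lowest of its age for miR-146a, was also the lowest of its age for miR-142-3p, with 2797. miR-142-3p itself was low on the dim arrays of day 1, with 852, 353 and 685, where the other 2 arrays of that age had 2832 and 3830. miR-150 was high on the same dim arrays, with 347, 562 and 526, where the other 2 had 195 and 250. The part of array brightness in these values was not tested.

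Array brightness and scaled level moved together to different extents for the 3. Across the arrays, with age held in the model, the log2 level changed per doubling of brightness by -0.18 for miR-146a, 0.023 for miR-146b and -0.48 for miR-155. The dimmer arrays thus read higher for miR-155 after scaling, and the young ages held most of the dim arrays.

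The miRNAs with the nearest course were ranked by the root mean square distance of their age means, each centred on its own mean over the 5 ages (log2), among 321 other tested miRNAs. Nearest to miR-146a were miR-22 at 0.0571, miR-125b-5p at 0.0816, miR-22* at 0.0959, miR-34c at 0.138 and miR-146b at 0.138. Nearest to miR-146b were miR-22* at 0.0956, miR-22 at 0.107, miR-146a at 0.138, miR-29a* at 0.148 and miR-125b-5p at 0.177. The 2 miR-146 miRNAs were thus among the nearest to each other, and both lay close to the 2 arms of the miR-22 precursor.

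miR-155 had other neighbours. Nearest to it were miR-150 at 0.0818, miR-29b* at 0.185, miR-29a* at 0.195, miR-34c* at 0.205 and miR-146b at 0.225. miR-146a ranked 10 from miR-155, at 0.281, and miR-155 ranked 31 from miR-146a. For miR-150 the log2 difference was 1.04 for day 42 minus day 14 and 0.56 for day 14 minus day 1, of which only the first of these 2 was called. For miR-22 the same differences were 0.37 and 1.02. These distances describe 5 age means and carry no test.

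**Figure D5:**
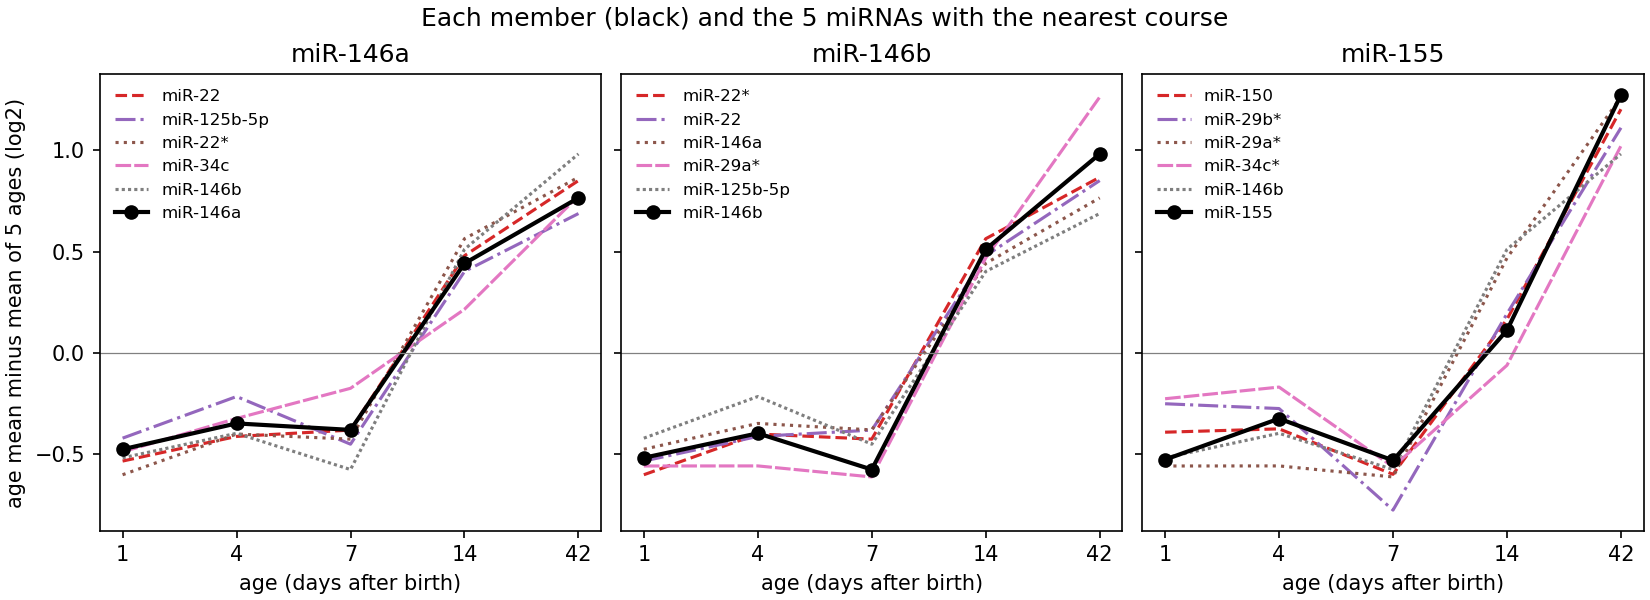
Age mean minus the mean of the 5 ages (log2, vertical axis) against age in days after birth, for each of the 3 miRNAs (black) and the 5 miRNAs with the nearest course. The lines of miR-146a and miR-22 run together at all ages, and the line of miR-155 runs with that of miR-150 below 0.2 at day 14 and above 1.2 at day 42.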

How the data were processed

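Total RNA of whole lung was measured on 24 Agilent miRNA arrays with 13715 spots. Per the labels' protocols it was extracted with a miRNeasy kit and labelled with Cy3, and Agilent Feature Extraction 10.7.1.1 made the array files, per the file headers. The deposited intensity values per spot were background-subtracted by the authors' software and not adjusted between arrays; detection, outlier and background marks are other deposited columns. The deposited log2 table served as an alternative. It holds 672 names, and every column has a median of 2.41. Each column follows the log2 total signal of its own array, with a lowest Pearson correlation of 0.998 and slopes of 0.893 to 1.08. What these unequal slopes do to ratios of 2 miRNAs in the deposited values was not tested. How the deposited table was made, its centring included, is not given in the sources used here.

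Non-outlier spots were averaged per probe, probes summed per miRNA, and each array divided by its own 75th percentile over 228 miRNAs that no array missed. Values under a floor of 7.24 (2.86 on the log2 scale) were set to it. Tests used limma 3.58.1 in R 4.3.3 over 5 ages (19 residual degrees of freedom, two-sided), on 322 miRNAs that were detected throughout 1 or more ages, after checks on simulated data. Ratios used exact permutation tests in R, and reading and drawing used Python 3.11.15. Normexp was run on median spot signals, because the files hold no mean signal. Leaving out the dim arrays (under 0.75 of the mean brightness) and normexp with no offset were chosen after seeing the data. The 3 miRNAs and all lists were chosen with earlier results of these data known. From the pathway list the 2 largest rises and falls are named with full values, and the others were chosen after their values were seen. From the ranked courses the nearest 5 are named. The number of arrays limits the precision.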

Additional observations from a re-analysis of the deposited data

Results flagged for a closer look

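Of the 15 groups tested (3 miRNAs at 5 ages), 1 held an array that stood apart by Dixon's test, which by chance marks about 1 in 20 groups. At day 42, replicate 4 had a scaled signal of 837 for miR-146b, and the nearest of the other 3 arrays had 719. The gap was 0.930 of the whole range on the log2 scale, above the 95% critical value for 4 arrays. Without that array the rise of miR-146b at day 42 over day 14 was still called.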

How the results depend on the processing

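The 19 called differences of the 3 miRNAs between ages were recomputed to 540 values. Of these, 520 kept direction and call, 16 lost the call and 4 changed sign. All 57 values within a slide kept the sign. That was fixed in advance wherever the arrays did not overlap, as for every called difference but day 14 minus day 4 of miR-146a. Of 318 values of the 11 uncalled differences, 13 were called. The losses came from normexp and from no scaling. With normexp, miR-146b was at 0.40, 0.59 and 0.19 for day 14 minus day 1, day 42 minus day 1 and day 42 minus day 14, and miR-155 at -0.48, -0.50 and -0.019, with an F-test range over ages of 1.06 (adjusted p = 0.297). With normexp and no offset, miR-146b was at 0.72 and 0.22 for day 14 minus day 1 and day 42 minus day 14, and miR-155 at -0.084, 0.12 and 0.21 in the order above, with a range of 1.21 (adjusted p = 0.395). The offset is by construction larger than most unscaled miR-155 signals; the cause without it was not tested. With no scaling, miR-146b was at 0.39 for day 42 minus day 14 (adjusted p = 0.463) and miR-155 at 0.72 and miR-146a at 0.82 for day 7 minus day 1 (adjusted p = 0.0177 and 0.0246), for which the cause was not tested. miR-146a at day 42 minus day 14 was called at 0.60 and 0.56 under 2 scalings. Values within 1 slide that moved by over 1 SD were, for miR-146a, 1.49 and 0.53 (day 14 minus day 1), 1.58 (day 42 minus day 1), -0.13 and 1.05 (day 42 minus day 14); for miR-146b, 0.84 (day 14 minus day 1), 0.24 and 0.65 (day 42 minus day 14); and for miR-155, 1.07 and 0.42 (day 14 minus day 1), 0.72 and 1.64 (day 42 minus day 14). The ratio of miR-155 over miR-146a at day 14 minus day 1 was 0.42 in the deposited table, where the ratios for day 42 that passed were 1.51 and 1.09 for miR-155 over miR-146a, 0.87 and 0.80 over miR-146b (minus day 1 and minus day 14), and 0.64 for miR-146b over miR-146a (minus day 1).

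Scaling moved the median of all tested miRNAs at day 42 minus day 1 to between -0.35 (as reported) and 0.64 (no scaling), and the share of calls that were rises to between 30.7% and 71.4%; relative to that median, miR-146a stood at 0.86 to 1.61, miR-146b at 1.50 to 1.87 and miR-155 at 2.16 to 2.54. For the steps to day 14 and from day 14 the share of rises ranged over 39.3% to 85.5% and 10.8% to 42.3%. With normexp the number of called miRNAs was 93 in place of 211 over the 5 ages, 52 in place of 173 for day 14 minus day 1, 9 in place of 101 for day 14 minus day 7 and 22 in place of 105 for day 42 minus day 14, but 242 in place of 199 for day 42 minus day 1 (128 with no offset). With array brightness as a covariate it was 28 in place of 5 for day 4 minus day 1 and 153 in place of 101 for day 14 minus day 7, and with no scaling 132 in place of 51 for day 7 minus day 1 and 65 in place of 105 for day 42 minus day 14. Leaving out 1 array gave 25 to 94 for day 7 minus day 1 and 3 to 12 for day 4 minus day 1. Same-numbered replicates of different ages did not deviate together: 46 correlations ran from -0.86 to 0.84 with a median of -0.022, so the numbers were not taken to pair the arrays. With the replicate block the differences at day 42 minus day 1 were 1.20 for miR-146a, 1.49 for miR-146b and 1.80 for miR-155, all called, and it changed no other call of the 3. The low signal over background of miR-155 before day 14 limits its early values.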
